A study of Mus musculus with 6 samples.

Results

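Colony-stimulating factors and their receptors were described in an immortalised mouse macrophage line by the RNA levels of 7 genes: the ligands Csf1 and Csf3 and the receptor chains Csf1r, Csf2ra, Csf2rb, Csf2rb2 and Csf3r. They were taken by gene name, 7 of 21047 genes listed. The set was chosen by measured levels, the higher Csf1 and Csf1r in A20KO than in WT beside the genes of GM-CSF and G-CSF signalling, so the members' own values, and which of them passed a threshold, are a description and support nothing. The 3 A20KO libraries came from immortalised bone-marrow-derived macrophages (iBMDM) with the A20KO genotype; A20, the product of Tnfaip3, edits ubiquitin chains and limits NF-kB activity. The 3 WT libraries came from iBMDM with the WT genotype. The labels give no treatment, dose, culture medium or growth factor for either genotype, and do not say whether the A20KO line is 1 clone or whether the 3 libraries of a genotype are separate cultures. The p-values for other genes therefore rest on the spread among the 3 libraries of each genotype, and that spread may be technical.

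Macrophages depend on some of these cytokines for survival, growth and activation. CSF1 (M-CSF) binds the receptor tyrosine kinase CSF1R, which drives survival and proliferation of the macrophage lineage and also binds IL-34. GM-CSF, encoded by Csf2, binds an alpha chain (Csf2ra) that pairs with the shared beta chain (Csf2rb) used by the IL-3 and IL-5 receptors as well, and mice carry a second beta chain gene, Csf2rb2, whose product serves IL-3. G-CSF, encoded by Csf3, acts on neutrophil precursors and neutrophils through CSF3R; macrophages are a well-known source of it after inflammatory stimulation.

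The libraries held 13308840 to 15130697 reads assigned to genes. Values are normalized read counts, which are not divided by gene length, unless TPM, a level per gene length computed from the recovered reads, is named. Log2 fold changes put A20KO over WT after adding 1 to each value, and their standard errors (SE) come from a limma fit to every gene tested. Tnfaip3 itself had 194, 196 and 189 normalized reads in A20KO and 389, 382 and 437 in WT. The macrophage markers Adgre1 and Cd68 were present in both genotypes: Adgre1 averaged 2591 ± 15.4 in A20KO and 2580.4 ± 15.7 in WT, and Cd68 3348 ± 112 in A20KO and 3708 ± 117 in WT (SD, n = 3 each). Of 9 macrophage markers 3 rose, 5 fell and 1 did not pass, and they summed to 19238 to 19507 normalized reads in A20KO and 24917 to 25262 in WT. Among those that rose, Mertk had 37 reads in A20KO and 0 in WT, and Fcgr1 averaged 623 in A20KO and 104 in WT. Among those that fell, Cd14 averaged 2465 in A20KO and 4325 in WT. Of 8 fibroblast markers 4 had values and summed to at most 3.91 normalized reads in any A20KO library and 3.15 in any WT library, and 1 of 5 mast cell markers had a value, at most 3.15 in A20KO and 0 in WT. Only 2 of 6 T cell markers and 2 of 5 B cell markers had values; their sums were 46.2 to 46.9 (T cell) and 64.4 to 79.8 (B cell) in A20KO, against 35.3 to 58.7 and 138 to 185 in WT. In bulk RNA, fewer cells of a type and less RNA per cell cannot be told apart.

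Csf1, which encodes M-CSF, was the member furthest above WT. Csf1 had 302, 284 and 359 normalized reads in the A20KO libraries, against 11.6, 16.2 and 11.5 in the WT libraries. Every A20KO library was far above every WT library, and the WT level rested on 12, 17 and 11 reads. The means were 315 ± 39.4 in A20KO and 13.1 ± 2.66 in WT (SD, n = 3 each), a log2 fold change of 4.49 (SE 0.203), and by this value Csf1 stood at position 51 from the top among 17376 genes tested. Csf1 (ENSMUSG00000014599; mm10 chromosome 3, 107741048 to 107760469, minus strand) overlaps no other annotated gene, and shared none of its 31-base words with another gene. Chromosome 3 genes as a whole had a median log2 fold change of -0.04.

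The start-site regions of 2 members are printed because each holds a match to the NF-kB consensus, the motif of the factor that A20 restrains. Promoter sequences came from RefSeq (GRCm38.p6, the mm10 assembly) and ran from 250 bases before to 50 after the start. Those of 4 of the 7 members were searched, Csf1, Csf2ra, Csf2rb2 and Csf3r. The region of Csf1r was left out of the search. The printed regions are Csf1 at chr3:107760420-107760719 on the minus strand and Csf3r at chr4:126024409-126024708 on the plus strand. Capitals mark motif matches on either strand.
Csf1: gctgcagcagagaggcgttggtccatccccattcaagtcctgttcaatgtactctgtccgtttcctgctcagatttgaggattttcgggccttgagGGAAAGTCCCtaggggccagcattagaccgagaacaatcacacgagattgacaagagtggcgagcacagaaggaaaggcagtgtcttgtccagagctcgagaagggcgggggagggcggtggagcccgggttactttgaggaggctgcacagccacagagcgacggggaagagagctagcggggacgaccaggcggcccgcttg
Csf3r: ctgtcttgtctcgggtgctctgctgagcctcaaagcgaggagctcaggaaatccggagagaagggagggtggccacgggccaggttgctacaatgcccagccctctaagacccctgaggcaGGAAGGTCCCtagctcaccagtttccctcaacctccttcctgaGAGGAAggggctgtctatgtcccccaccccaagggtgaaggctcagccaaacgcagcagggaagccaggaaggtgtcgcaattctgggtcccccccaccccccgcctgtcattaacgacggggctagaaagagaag
In Csf1 the capitals are the NF-kB consensus, which begins 154 bases before the start, and in Csf3r they are the NF-kB consensus at 129 bases and GAGGAA, the core bound by the myeloid factor PU.1, at 86 bases before it. The NF-kB consensus occurred in 8.46% of 32851 promoters of this length and GAGGAA in 28.3%. Csf2ra and Csf2rb2 held 2 GAGGAA matches each, overlapping no other match, and no NF-kB consensus. AP-1 (TGANTCA), C/EBP (TTGCNNAA) and the TATA box (TATAAA) matched none of the 4 windows; they occurred in 7.81%, 10.8% and 13.6% of all promoters. A match is a run of letters, and binding was not measured.

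Csf1r, the receptor tyrosine kinase for CSF1 and IL-34, was also higher in A20KO. Csf1r had 5369.9, 5263 and 5410.4 normalized reads in A20KO, against 2476, 2380.1 and 2634 in WT. The A20KO libraries lay close together and all lay above the WT libraries. The means were 5348 ± 76.1 in A20KO and 2497 ± 128 in WT (SD, n = 3 each), a log2 fold change of 1.10 (SE 0.0403) that ranked 1343 among the genes tested. Csf1r (ENSMUSG00000024621) lies on the plus strand of chromosome 18 from 61105572 to 61132149. It overlaps 873 bases of Hmgxb3 on the opposite strand, and whether strand was used in counting is not stated, so reads from this overlap cannot be told apart. Hmgxb3 averaged 1180.5 ± 29.5 in A20KO and 1120.2 ± 50.1 in WT (SD, n = 3 each), a log2 fold change of 0.08 that did not pass (limma adjusted p = 0.31). IL-34, the other CSF1R ligand, was near the detection limit: Il34 had 7.81, 8.80 and 5.25 normalized reads in A20KO and 7.76, 9.53 and 8.39 in WT (limma adjusted p = 0.77), and at this depth a small difference was not detectable.

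**Figure D1:**
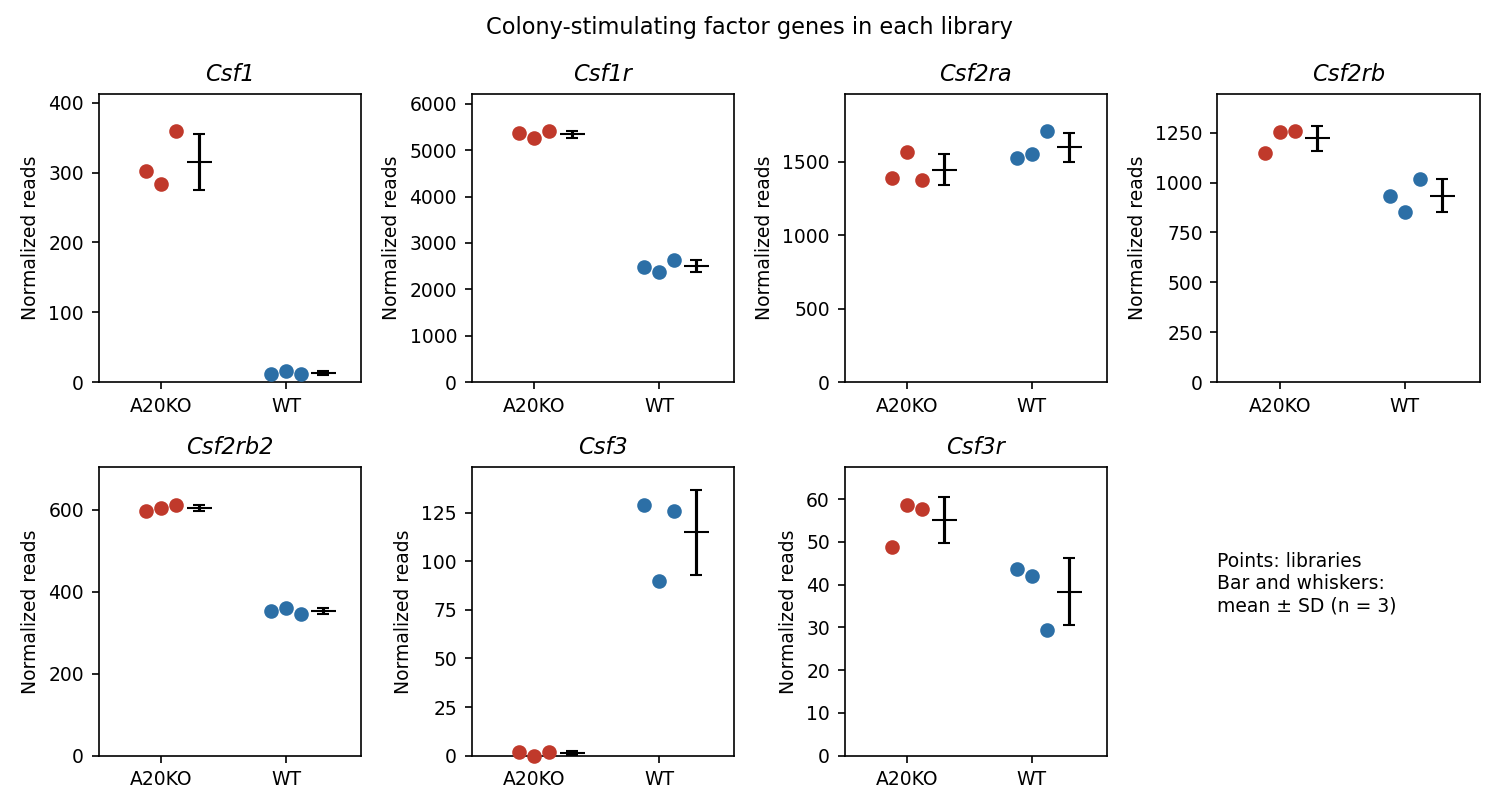
Normalized reads (vertical axes, each from 0) of the 7 genes in the 3 A20KO and the 3 WT libraries; points are libraries and the bar with whiskers is the mean ± SD (n = 3). Csf1 and Csf1r sit higher in every A20KO library and Csf3 lower, while the Csf2ra values overlap.

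The GM-CSF receptor chains did not move together. Csf2ra, the ligand-binding alpha chain, had 1393, 1567 and 1378 normalized reads in A20KO, against 1529, 1557 and 1709 in WT. The genotypes overlapped, since A20KO replicate 2 was above WT replicates 1 and 2. The log2 fold change was -0.14 (SE 0.0537), a size exceeded by most genes, as only 26.6% of those tested had a smaller one. Csf2ra (ENSMUSG00000059326) is a chromosome 19 gene, at 61224402 to 61228418 on the minus strand.

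Both beta chain genes were higher in A20KO. Csf2rb, the beta chain shared by the GM-CSF, IL-3 and IL-5 receptors, had 1150.3, 1255 and 1258 normalized reads in A20KO and 931, 854 and 1018 in WT, a log2 fold change of 0.39 (SE 0.0604). Csf2rb2, the beta chain that serves IL-3 in the mouse, had 597, 603 and 612 in A20KO and 353, 360.3 and 345 in WT, a log2 fold change of 0.77 (SE 0.0796). In both genes all A20KO libraries were above all WT libraries, and Csf2rb2 had the lowest coefficient of variation of the 7 members, 1.28% in A20KO and 2.16% in WT.

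Csf2rb (ENSMUSG00000071713; chromosome 15 from 78325752 to 78353847, plus strand) and Csf2rb2 (ENSMUSG00000071714; 78282507 to 78305721, minus strand) are separated by 20030 bases and are close copies of each other. Their coding sequences, from the longest coding transcripts in GENCODE M21 (2688 and 2634 bases), were identical at 95.2% of aligned bases, and the longest identical run was 242 bases. The 120 coding bases in which they differ most are printed as an example of bases that tell the copies apart. With 18.3% of its bases differing, the stretch does not stand for the rest of the coding sequence. Capitals mark the 22 bases that differ. The stretches run from coding base 309 to 428 of Csf2rb and from 312 to 431 of Csf2rb2.
Csf2rb: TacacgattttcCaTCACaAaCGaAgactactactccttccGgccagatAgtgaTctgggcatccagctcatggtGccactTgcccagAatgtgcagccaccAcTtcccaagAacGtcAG
Csf2rb2: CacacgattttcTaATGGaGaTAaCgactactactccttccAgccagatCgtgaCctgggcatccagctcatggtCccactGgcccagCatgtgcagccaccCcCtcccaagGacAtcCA
Of the 31-base words of Csf2rb 18.8% occurred in Csf2rb2, and of those of Csf2rb2 28.6% occurred in Csf2rb. With 75-base words these shares were 7.15% and 10.6%. How reads that match both copies were counted is not stated, so the split between the genes is uncertain. Csf2rb took 65.8%, 67.5% and 67.2% of the reads of both genes in the A20KO libraries, against 72.5%, 70.3% and 74.7% in the WT libraries. Every A20KO share was below every WT share. The exact (Clopper-Pearson) 95% interval of WT replicate 2 (67.7% to 72.8%) nevertheless overlapped that of every A20KO library. The A20KO intervals reached up to 68.0%, 69.6% and 69.4% in replicates 1, 2 and 3. Reads are not independent molecules, so these intervals cover counting error only.

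The change of Csf2rb was that of a typical gene of its chromosome. Of 662 tested genes on chromosome 15, 355 (53.6%) were higher in A20KO and 47 were lower, against 18.9% higher among genes of the other chromosomes, and the median log2 fold change on chromosome 15 was 0.38. Csf2rb was above 50.2% of the chromosome's genes and differed from their median by 0.0039, while Csf2rb2 was above 79.9% and lay 0.39 over the median. Whether a shift of the whole chromosome had a part in either value was not tested. Among 8 other listed genes with a start within 200 kb of either one, 6 were tested; 4 rose, 1 fell and 1 did not pass. C1qtnf6, a secreted protein of the C1q and TNF-related family, rose most, with 246 ± 8.54 in A20KO and 15.04 ± 6.14 in WT (SD, n = 3 each; log2 fold change 4.01, limma adjusted p = 2.1e-24). Kctd17, Ift27 and Tst rose by 0.78, 0.89 and 1.29 on the log2 scale. Ncf4, the p40 subunit of the phagocyte NADPH oxidase and the gene next to Csf2rb2 among those listed, fell by 0.79 (adjusted p = 1.9e-19). Csf2ra, Csf3r, Csf1r and Csf3 lie on chromosomes with medians between -0.02 and 0.02.

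**Figure D2:**
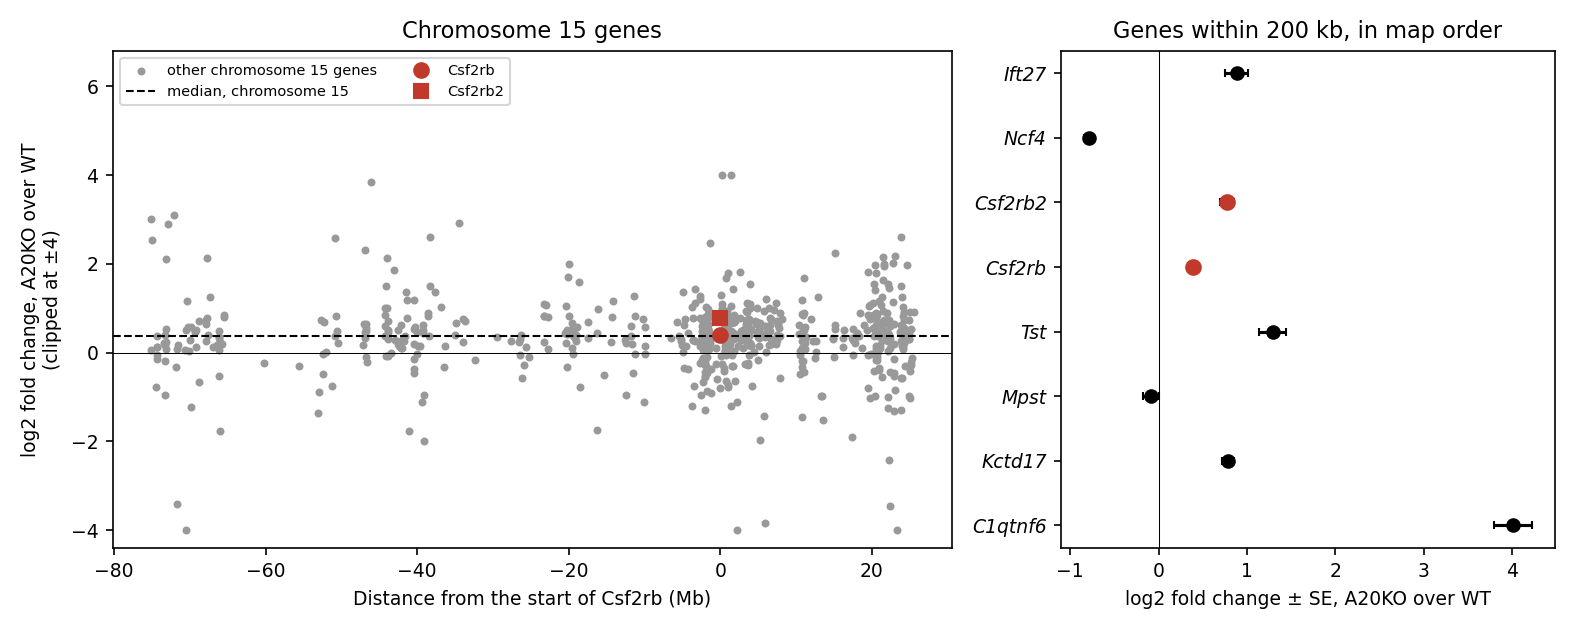
Left, log2 fold change (A20KO over WT, clipped at ±4) of the 662 tested chromosome 15 genes against distance from the start of Csf2rb in Mb, with the chromosome median of 0.38 dashed; right, log2 fold change ± SE of the tested genes with a start within 200 kb, in map order. Csf2rb lies on the chromosome median and Csf2rb2 above it, with Ncf4 below 0 and C1qtnf6 at 4.01.

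Csf3, which encodes G-CSF, was nearly undetected in A20KO. Csf3 had 1.95, 0 and 2.10 normalized reads in A20KO, from 2, 0 and 2 reads, against 129, 89.6 and 126 in WT, from 133, 94 and 120 reads. No A20KO library came near the lowest WT library. Per library size, WT over A20KO gave a ratio of 85.8 (exact 95% counting interval 33.2 to 317) from 347 and 4 reads. The log2 fold change was -5.77 (SE 0.414), and Csf3 was in position 13 from the largest fall among the genes tested; in the authors' deposited table its log2 fold change is -6.43. Csf3 (ENSMUSG00000038067) lies on the plus strand of chromosome 11 from 98701263 to 98703629, overlaps no other annotated gene and shared no 31-base word with one.

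Csf3r, the receptor for G-CSF, was a low-level gene with slightly higher values in the A20KO libraries, a difference that did not pass in the fit. Csf3r had 48.8, 58.7 and 57.8 normalized reads in A20KO and 43.7, 41.9 and 29.4 in WT. The groups did not overlap, but WT replicate 3 was well below the other WT libraries, and the log2 fold change of 0.53 (SE 0.239) became 0.35 without it. Csf3r (ENSMUSG00000028859; chromosome 4 from 126024550 to 126044440, plus strand) shared 23.1% of its 31-base words, but 3.13% of its 75-base words, with other annotated transcripts, so the origin of some of its reads is uncertain. Among granulocyte markers, 11 of 17 had values, 9 were tested, 1 rose and 4 fell, and their summed level was 427 to 474 normalized reads in A20KO and 2422 to 2576 in WT. Most of that sum in WT was Lcn2, the siderophore-binding lipocalin also made by activated macrophages, with 110.3 ± 4.18 in A20KO and 1855 ± 49.8 in WT (SD, n = 3 each; limma adjusted p = 1.1e-47). The other markers that fell were Cebpe (mean 200 in A20KO and 398 in WT), S100a8 (42.6 in A20KO and 112 in WT) and Gfi1 (72.6 in A20KO and 112 in WT). The defining granule genes Mpo and Elane had no read in A20KO and averaged 0.965 and 1.64 in WT, and Mmp8 and Ngp averaged 0.652 each in A20KO and 2.31 and 1.62 in WT. In the other direction, Prtn3, which encodes a granule protease, averaged 9.99 in A20KO and 1.61 in WT and was the marker that rose (limma adjusted p = 0.002). Cxcr2, a neutrophil chemokine receptor, averaged 6.33 in A20KO and 1.66 in WT, and Camp, a granule peptide gene, 6.68 in A20KO and 4.63 in WT, and neither passed. The part of these markers in the Csf3 and Csf3r values was not tested.

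In the fit across all genes, 4 of the 7 members passed as higher (Csf1, Csf1r, Csf2rb and Csf2rb2), 2 as lower (Csf3 and Csf2ra) and Csf3r did not pass, beside 39.8% of all 17376 genes at an adjusted p under 0.05, 20.3% higher and 19.6% lower. Csf2ra was not past the threshold under 6 of 17 alternatives, among them DESeq2 and the fit without WT replicate 3. The genotypes did not overlap in 6 members, 5 higher and 1 lower, beside 46.9% of all genes, 24.5% higher and 22.4% lower. All 7 passed the filter on low values. Nothing is read from these counts, because the same contrast chose the members. Their median log2 fold change was 0.53, beside 0.01 for all genes tested.

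Compared per length, the order of the receptors differed between the genotypes. In A20KO the order of TPM levels was Csf1r (248 ± 5.07), Csf2ra (177 ± 13.3), Csf2rb (38.0 ± 2.37), Csf2rb2 (28.9 ± 0.743), Csf1 (13.5 ± 1.81), Csf3r (3.46 ± 0.383) and Csf3 (0.216 ± 0.188; SD, n = 3 each), with no overlap between neighbours. In WT it was Csf2ra (191 ± 12.9), Csf1r (113 ± 6.87), Csf2rb (28.4 ± 2.77), Csf3 (18.0 ± 3.58), Csf2rb2 (16.4 ± 0.205), Csf3r (2.34 ± 0.466) and Csf1 (0.548 ± 0.105), where only Csf3 and Csf2rb2 overlapped. Csf1r thus stood above Csf2ra in TPM in every A20KO library and below it in every WT library. This order rests on the deposited gene lengths, 4885 bases for Csf1r and 1849 for Csf2ra. The deposited positions of both genes differ from those in GENCODE M21. In normalized reads, not divided by length, Csf1r was above Csf2ra in every library of both genotypes (WT means 2497 and 1598). Csf1, the lowest of the 7 in WT, and Csf3, the lowest in A20KO, held the last place in the order of their genotype. Csf1r was at the 96.3 percentile of TPM among tested genes in A20KO and at 90.8 in WT, and Csf1 was at 54.5 in A20KO and 18.1 in WT.

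**Figure D3:**
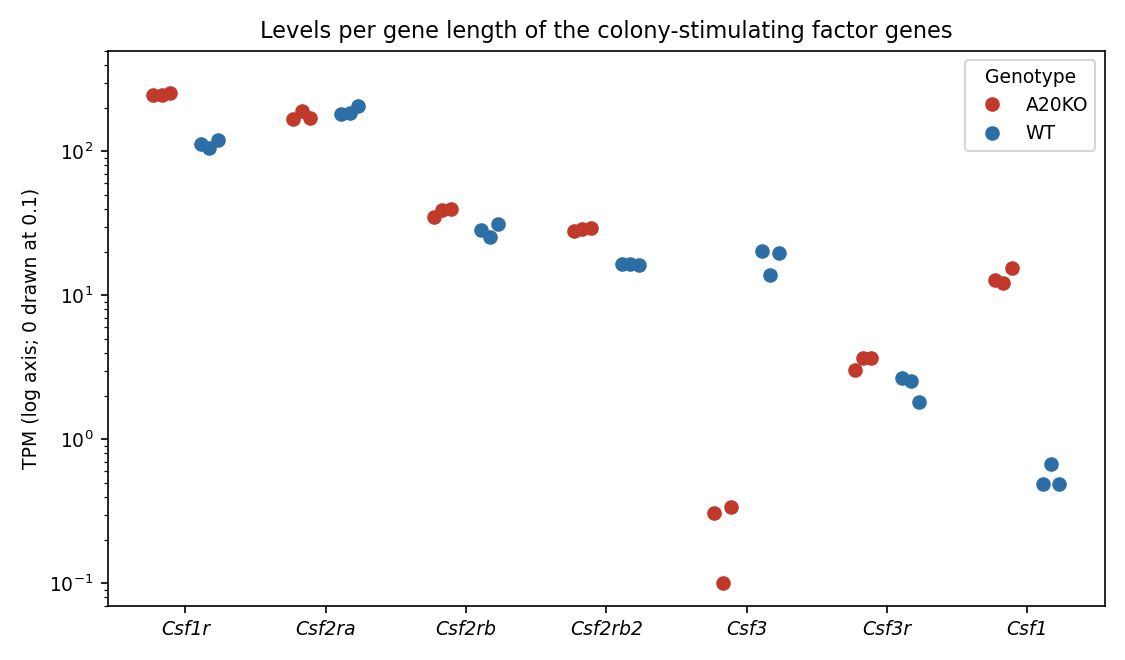
TPM on a log axis for the 7 genes in the A20KO libraries (left of each pair) and the WT libraries (right), 1 point per library, with the A20KO library without a Csf3 read drawn at 0.1. Per gene length, Csf1r lies above Csf2ra in A20KO and below it in WT, and Csf3 is the lowest of the 7 in A20KO and Csf1 the lowest in WT.

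Ratios within a library do not depend on library scaling. The ratio of Csf1r to Csf2ra TPM was 1.46, 1.27 and 1.49 in A20KO, against 0.613, 0.579 and 0.583 in WT. Csf1r made up 50.1% ± 1.73 of the summed TPM of the 5 receptor chains in A20KO and 32.2% ± 0.508 in WT (SD, n = 3 each). Both beta chain genes together reached 0.379 ± 0.0258 of the Csf2ra TPM in A20KO and 0.235 ± 0.00864 in WT. For every 100 TPM of Csf1r there were 5.21, 4.99 and 6.14 TPM of Csf1 in A20KO, against 0.435, 0.63 and 0.405 in WT. The pair of Csf3 and Csf3r ran the other way, with 10.2, 0 and 9.29 TPM of Csf3 per 100 TPM of Csf3r in A20KO and 755, 546 and 1095 in WT. In these ratios the A20KO libraries and the WT libraries did not overlap. They did overlap in the ratio of Csf1r to Csf3r TPM, which was 81.3, 66.3 and 69.2 in A20KO, against 41.9, 41.9 and 66.3 in WT.

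**Figure D4:**
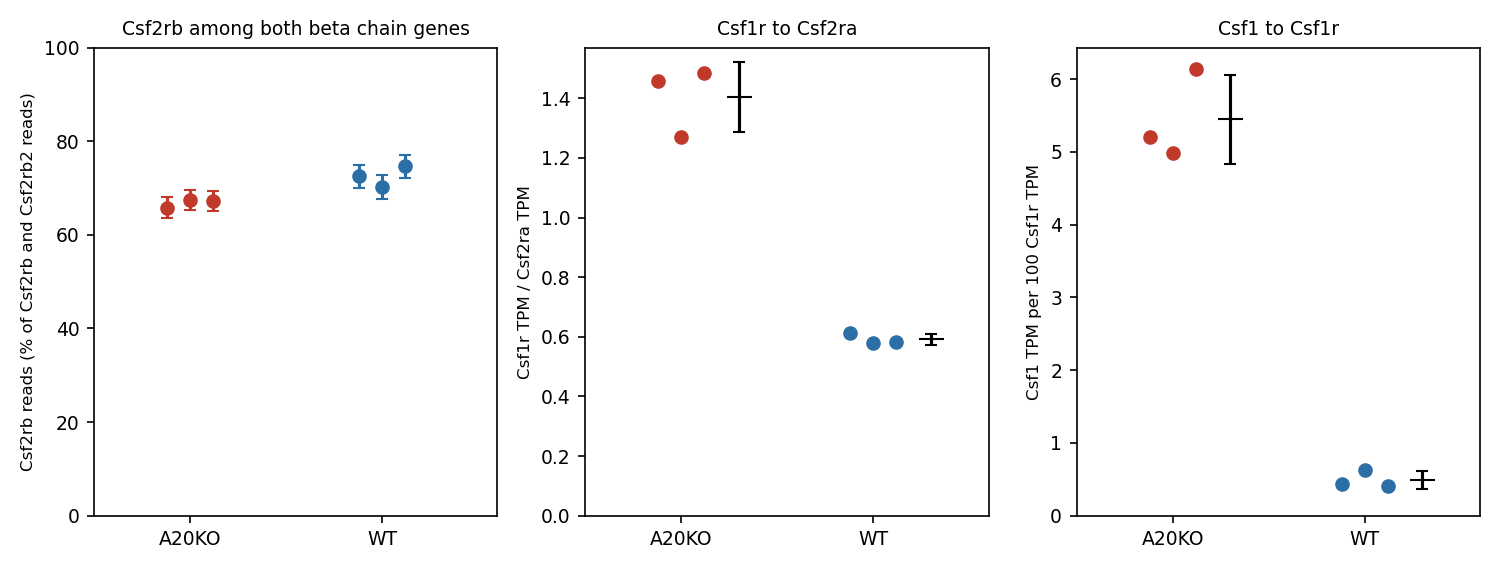
Ratios in each A20KO and WT library: the share of Csf2rb among Csf2rb and Csf2rb2 reads with its exact 95% counting interval, Csf1r TPM over Csf2ra TPM, and Csf1 TPM per 100 Csf1r TPM; bars with whiskers are the mean ± SD (n = 3). In TPM, Csf1r exceeds Csf2ra in A20KO (1.27 to 1.49) and not in WT (0.579 to 0.613).

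The genes whose profiles over the 6 libraries were most like those of the members were found by Euclidean distance between log2 values centred on each gene's mean, among 11419 other named genes with a mean of at least 5. Nearest to Csf1 were Angptl2 (distance 0.363), Hpse (0.43), the heparanase, and Peak1os (0.435). Nearest to Csf1r were Cyth4 (0.0511), Ccnd1 (0.0684), the cyclin that drives entry into the DNA synthesis phase, and Ptpra (0.0855). Nearest to Csf2rb2 were Ski (0.0241), Tonsl (0.0528) and Hnrnpa1 (0.0609), of which Tonsl and Hnrnpa1 also lie on chromosome 15. Nearest to Csf2rb were Usp2, Akip1 and Stard9, to Csf2ra were Trim14, Zfp346 and Arid1a, and to Csf3r were Rnf138, Psd3 and Cldn34c1, at distances of 0.0626 to 0.205. The nearest to Csf3 were further off: Adora2a (1.38), an adenosine receptor, Slc7a11 (1.51) and Irak3 (1.54). Csf3 rested on 2, 0 and 2 reads in A20KO, so these distances include counting scatter and do not set its profile apart. Adora2a had a log2 fold change of -5.43, beside -5.77 for Csf3. With 2 genotypes, this measure depends mainly on the size of the genotype difference, and for Csf3 also on the scatter among its few A20KO reads.

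Around the members, 7 lists held 113 pathway genes, of which 97 were tested; 28 rose, 38 fell and 31 did not pass. Over all genes tested 20.3% were higher and 19.6% lower, which is the background for the count of each list. That background includes low genes. Among genes with a mean of at least 5 a larger share passed, 6760 of 13815 (3388 higher and 3372 lower). Of the other ligands and receptors of these families 5 were tested, and Kitl, the stem cell factor that binds the CSF1R relative KIT, rose. Kitl had 367, 400.04 and 391 normalized reads in A20KO and 35.9, 40.03 and 14.7 in WT. All A20KO libraries lay far above all WT libraries, and the log2 fold change was 3.75 (limma adjusted p = 5.5e-04). The other 4 did not pass. Il3ra, the alpha chain that joins Csf2rb in the IL-3 receptor, averaged 192 ± 11.5 in A20KO and 232 ± 33.8 in WT (adjusted p = 0.069), and without WT replicate 1 it passed as lower (adjusted p = 0.011). Flt3l, the ligand of FLT3, averaged 21.6 ± 11.5 in A20KO and 33.9 ± 2.11 in WT (adjusted p = 0.056), and passed as lower without A20KO replicate 3 (adjusted p = 0.0080). Sdc1, a cell surface proteoglycan, averaged 1861 ± 51.1 in A20KO and 1832 ± 46.5 in WT (SD, n = 3 each; adjusted p = 0.77). Flt3, a receptor tyrosine kinase related to CSF1R, averaged 0.652 in A20KO and 0 in WT and was under the filter on low values. The related kinases Pdgfra (0 in A20KO and 1.37 in WT) and Pdgfrb (1.002 in A20KO and 0.318 in WT) were too, as was the cytokine gene Il5 (1.001 in A20KO and 0.318 in WT). Csf2, Il3, Il5ra, Kit and Ptprz1 were not analysed here.

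Of 27 tested genes for proteins that act below CSF1R, 4 rose, 15 fell and 8 did not pass. Their median log2 fold change was -0.12, beside 0.01 over all genes tested. Without the variance trend in the fit 12 passed, 2 higher and 10 lower. Syk, a tyrosine kinase, averaged 1975 ± 43.3 in A20KO and 3605 ± 66.1 in WT (log2 fold change -0.87, limma adjusted p = 6.6e-27). Pik3cb, a catalytic subunit of phosphoinositide 3-kinase, averaged 956 ± 42.4 in A20KO and 1673 ± 48.6 in WT and fell by 0.81 on the log2 scale. Plcg2, a phospholipase C, and Inpp5d, the lipid phosphatase SHIP1, rose by 0.55 and 0.51. Fyn, a Src-family kinase, rose by 0.34, though not without the variance trend (adjusted p = 0.051).

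The JAK and STAT proteins and targets used by the GM-CSF and G-CSF receptors had 15 tested genes, of which 1 rose, 7 fell and 7 did not pass (median -0.18). Stat5a, a transcription factor activated by GM-CSF, averaged 523 ± 41.6 in A20KO and 386 ± 32.05 in WT and rose by 0.44 on the log2 scale (limma adjusted p = 1.3e-05). The PIM kinase genes, known targets of STAT5, fell. Pim2 averaged 76.1 ± 13.4 in A20KO and 559.7 ± 20.1 in WT, and Pim1 308 ± 5.06 in A20KO and 700.1 ± 55.9 in WT (SD, n = 3 each). Tyk2, a Janus kinase, fell by 1.03. Socs3, an inhibitor of cytokine receptor signalling, averaged 45.9 ± 7.85 in A20KO and 50.1 ± 4.36 in WT and did not pass (adjusted p = 0.7).

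Transcription factors known from these receptor genes or from macrophage differentiation went both ways, with 8 of 16 tested higher, 5 lower and 3 not past the threshold (median 0.28). Irf8, a factor of monocyte development, averaged 549 ± 44.5 in A20KO and 240.1 ± 8.94 in WT (log2 fold change 1.19, limma adjusted p = 7.6e-18). Cebpa, a factor of myeloid development, rose by 3.50 on the log2 scale. Spi1, which encodes PU.1, an activator of Csf1r, fell to 3615 ± 135 in A20KO, against 4947 ± 43.8 in WT. Cebpb, a myeloid factor, fell by 1.12, and Ets2, an ETS-family factor, fell by 2.06.

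Genes linked to the growth response to CSF1 were also split, with 8 of 19 tested higher, 5 lower and 6 not past the threshold (median 0.27). Plau, which encodes urokinase, averaged 1651 ± 76.4 in A20KO and 148 ± 10.9 in WT (limma adjusted p = 1.7e-44). Itgav, an integrin alpha chain, and Ccnd1 rose by 1.13 and 1.09 on the log2 scale. Myc, a growth regulator on chromosome 15, fell to 21.4 ± 6.35 in A20KO, against 73.7 ± 16.8 in WT. Junb, an AP-1 subunit, fell by 0.69, and Dusp5, a phosphatase of ERK kinases, fell by 0.66.

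Of 9 tested genes linked to GM-CSF and dendritic-type differentiation 5 rose, 2 fell and 2 did not pass (median 0.85, also with the 3 genes without a read in 1 genotype at their bounds). Itgax, which encodes CD11c, averaged 42.4 ± 11.9 in A20KO and 16.9 ± 7.07 in WT (limma adjusted p = 5.6e-04, and 0.072 without the variance trend). Zbtb46, a factor of classical dendritic cells, rose by 1.10 on the log2 scale. Mgl2, a macrophage lectin, was at least 8.76-fold higher on a floor of 3 reads over the group, with 26 reads in A20KO and 0 in WT. Pparg, a factor that GM-CSF induces in alveolar macrophages, averaged 597 ± 30.1 in A20KO and 765 ± 72.2 in WT, and its target Fabp4 fell by 0.71.

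Of 6 tested genes that shed or turn over receptors 1 rose, 4 fell and 1 did not pass (median -0.49). Rhbdf1, an inactive rhomboid that brings ADAM17 to the cell surface, averaged 77.8 ± 7.25 in A20KO and 669 ± 50.6 in WT. Its relative Rhbdf2 averaged 555 ± 12.8 in A20KO and 1134 ± 88.5 in WT (SD, n = 3 each). Cbl, the ubiquitin ligase that marks activated CSF1R for degradation, fell by 0.49 on the log2 scale (limma adjusted p = 7.6e-17), and the protease gene Adam10 rose by 0.41. Adam17, the protease that sheds CSF1R and TNF, fell by 0.50; it was named after its values were seen.

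**Figure D5:**
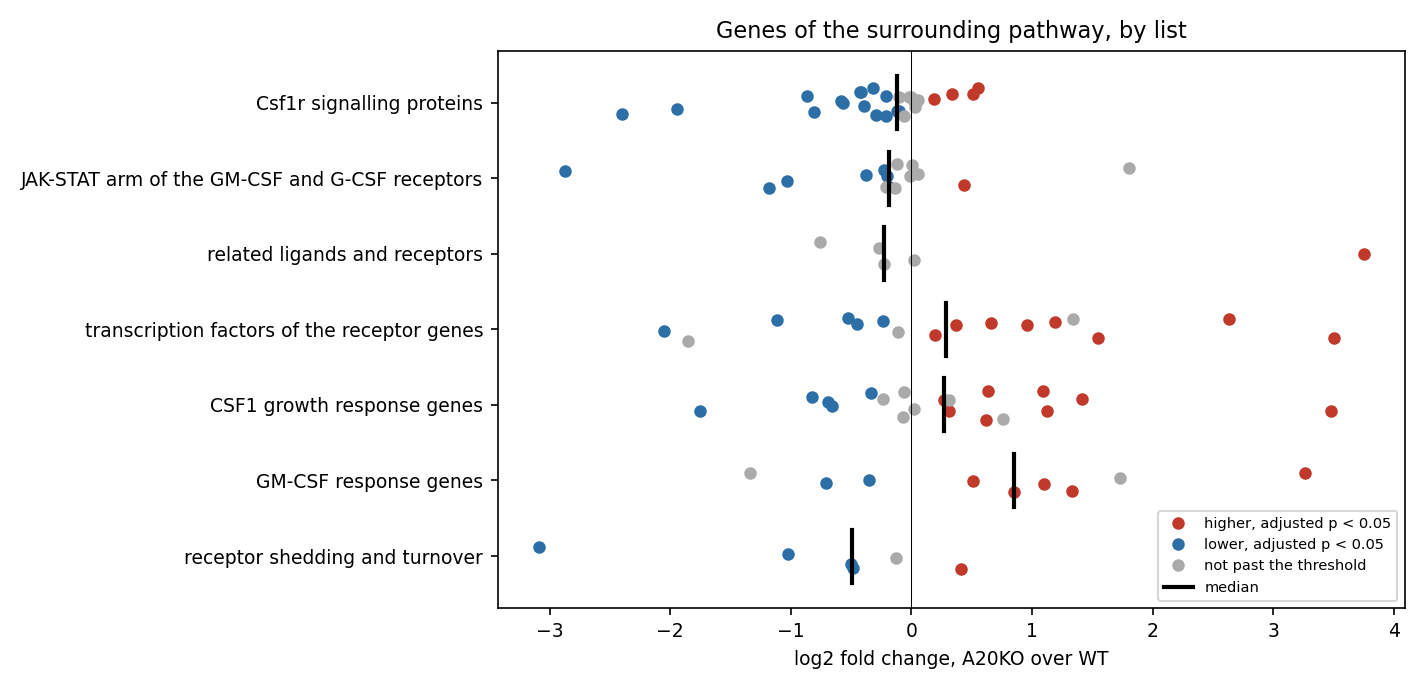
Log2 fold change (A20KO over WT) of each tested gene in 7 lists around the colony-stimulating factor receptors, coloured by direction where the adjusted p is under 0.05, with the list median as a bar. The medians of the CSF1R signalling proteins (-0.12), the JAK and STAT genes (-0.18), the related ligands and receptors and the shedding and turnover genes (-0.49) lie left of 0, and those of the other 3 lists right of 0.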

How the data were processed

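Trizol-extracted RNA of 3 A20KO and 3 WT iBMDM samples went into SMARTer libraries, per the labels' protocols. The submitters' processing notes name mm10; the sources used here give no aligner, counter or strand setting. The authors deposited a normalized signal per gene and library (unit: read counts divided by a size factor), with log2 fold changes, p-values, adjusted p-values and gene lengths, per the file headers. All values (100%) were whole multiples of 1 read within 0.001 reads, so reads were recovered; library totals were 13308840 to 15130697.

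Of 21047 genes, the 17376 with a mean normalized value of 1 or more were tested as log2(value + 1) with limma 3.58.1 (trend, robust) in R 4.3.3, Benjamini-Hochberg threshold 0.05; the fitting script was tested on simulated data. On recovered reads, edgeR 4.0.16 (quasi-likelihood) called 6603 of 12656 genes and DESeq2 1.42.0 called 5766. A fold change on the log2(value + 1) scale understates that of low genes. TPM, ratios, shared words (GENCODE M21 transcripts, both strands) and alignments (Biopython 1.88) were computed from the reads and references. The labels do not say whether samples with the same replicate number are pairs, and the fit carried no block. The members and gene lists were chosen with earlier results of these data known. Named genes were all members, Tnfaip3, the related ligands and receptors, up to 3 genes per list and direction by smallest adjusted p, the 3 nearest profiles per member and the neighbours within 200 kb of either beta chain gene; markers, Hmgxb3 and others marked so are exceptions, and 2 genes that the rule gave are not reported here.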

Additional observations from a re-analysis of the deposited data

How the results depend on the processing

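The log2 fold changes of the 7 members kept their direction under all 17 alternatives, which covered filters, pseudocounts, scalings, edgeR, DESeq2, the variance trend, the replicate block and leaving out each library. Csf3 depended on the pseudocount, at -7.21 with 0.1 and -4.24 with 5, and Csf1 was 4.15 with 5. Csf2rb2 was 0.81 after quantile normalization, against 0.77 in the main fit. Csf2ra was past the threshold under 11 of the 17 and not with DESeq2, quantile normalization or no variance trend, nor without A20KO replicate 1 (-0.12), A20KO replicate 3 (-0.11) or WT replicate 3 (-0.10); Csf3r was past it under none. The count of genes called was 5014 to 6919, and 6218 to 6473 with each library left out. CSF1R signalling genes past the threshold numbered 12 without the variance trend, and 16 to 18 with each library left out. Related ligands and receptors past it numbered 2 after quantile normalization, and 1 to 2 with each library left out. The cause was not tested. With the replicate block 6729 genes were called, against 6917, and no member changed its call; samples with the same number did not deviate together (correlations of -0.032 to 0.0054). Of the values of 37 other genes taken by the rule for named genes, 619 of 624 values kept their direction and side of the threshold. Depth limits Csf3 in A20KO (4 reads), Csf1 in WT (40 reads) and Il34.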
